A study of Mus musculus with 4 samples.

Results

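Histone H4 acetylation was described at 15011 narrow regions of the mouse genome that carried an acetylation peak in every one of 4 libraries from bone marrow-derived macrophages. The members were found by merging overlapping or touching peaks of the 4 deposited peak lists into 62481 regions. A total of 17827 of these had a peak in all 4 lists, and the 15011 members (84.2% of the 17827, 24.0% of all merged regions) were those with a merged width below 3000 bp. The remaining 2816 regions with a peak in all 4 lists, 3000 bp and wider, are called broad here. The members were thus chosen by peak positions and widths in these same lists, and every value of covered length or score below is a description of those lists.

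The series asked what the deacetylase HDAC3 contributes to inflammatory gene expression in macrophages. Acetylated H4 was mapped with ChIP-seq (sequencing of immunoprecipitated chromatin) in primary macrophages grown from the bone marrow of C57BL/6 mice, at day 7 of their differentiation. The groups were LPS-treated HDAC3 KO (HDAC3 -/-), LPS-treated wt (HDAC3 +/-), untreated HDAC3 KO (HDAC3 -/-) and untreated wt (HDAC3 +/-). Treated cells received 100 ng/ml of lipopolysaccharide (LPS) for 4 h. The cells called wt are heterozygous, so the genotype comparison sets HDAC3 -/- against HDAC3 +/- cells and holds no HDAC3 +/+ group. How the allele was deleted, and whether marrow of several animals was pooled, is not given in the sources used here. Each group had 1 library, so no spread between replicates exists, no p-value was computed, and each difference below is a difference between libraries.

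Acetylation of the histone H4 tail weakens its contacts with DNA and neighbouring nucleosomes, is read by bromodomain proteins, and marks active promoters and enhancers. HDAC3 removes acetyl groups from histones as the catalytic subunit of the NCoR and SMRT corepressor complexes. LPS, from the outer membrane of Gram-negative bacteria, acts through the receptor TLR4 and leads to acetylation at inflammatory promoters and enhancers. The members are known here by position only, since their coordinates are mm9 and no gene annotation of that build was used. For the same reason neither macrophage marker genes nor the Hdac3 locus were used to check the labels.

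The merged width of the members ran from 265 to 2999 bp, with a median of 1598 bp and an interquartile range of 1146 to 2067 bp. Together they spanned 24.5 Mb. They held 38.5% of the 45589 peaks of LPS-treated HDAC3 KO, 45.7% of the 39550 peaks of LPS-treated wt, 46.0% of the 41956 peaks of untreated HDAC3 KO and 43.2% of the 48706 peaks of untreated wt. By length, they held 41.1% of the 50.4 Mb listed in LPS-treated HDAC3 KO, 46.8% of the 37.4 Mb in LPS-treated wt, 49.0% of the 36.4 Mb in the untreated HDAC3 KO library and 48.0% of the 35.4 Mb in untreated wt. The list of LPS-treated HDAC3 KO was the longest in Mb, and the members took the smallest share of it. Read depth of the libraries is unknown, and more listed length in a library cannot be told apart here from deeper sequencing, a more efficient immunoprecipitation or more acetylation.

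Covered length is the number of bp of a region that lie inside the peaks of 1 list. Its median per member was 1314 bp in LPS-treated HDAC3 KO, with an interquartile range of 876 to 1807 bp. It was 1091 bp in LPS-treated wt (715 to 1545 bp), 1120.0 bp in the untreated HDAC3 KO library (732 to 1567 bp) and 1078 bp in untreated wt (712 to 1480 bp). The LPS-treated HDAC3 KO library stood above the other 3, whose medians lay close together, and it enters the LPS comparison in HDAC3 KO and the genotype comparison with LPS. The LPS comparison in wt and the genotype comparison in untreated cells do not use it. Its peaks filled a median of 89.1% of the merged width, against 75.6% in LPS-treated wt, 77.4% in the untreated HDAC3 KO library and 73.4% in untreated wt. In sum, members covered 20.7 Mb in LPS-treated HDAC3 KO, 17.5 Mb in LPS-treated wt, 17.9 Mb in the untreated HDAC3 KO library and 17.0 Mb in untreated wt.

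**Figure D1:**
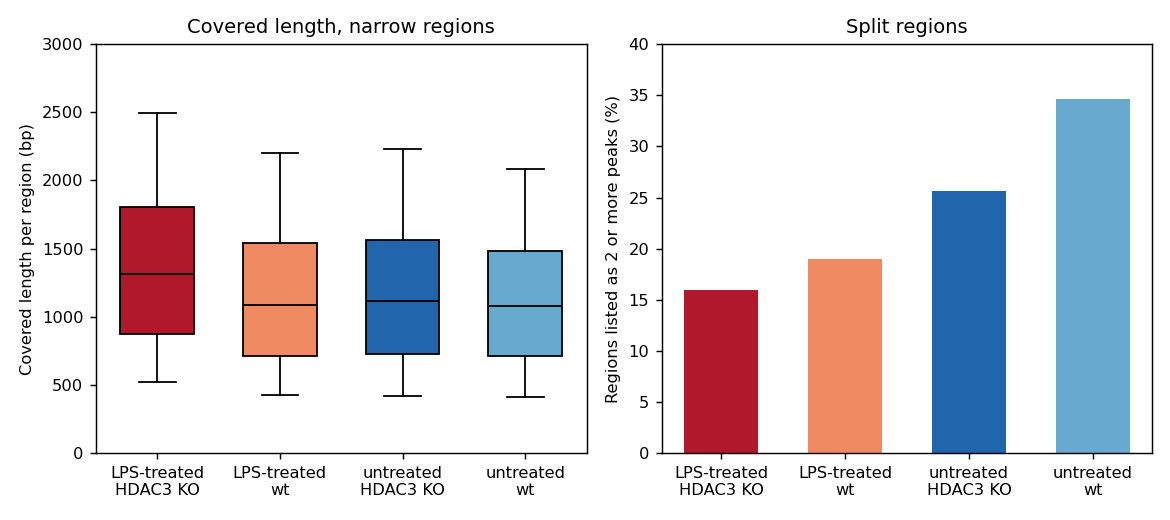
Left, covered length in bp per narrow region in each of the 4 libraries (n = 15011 regions), with the line at the median, the box at the interquartile range and whiskers at the 5th and 95th percentiles. Right, percent of these regions listed as 2 or more peaks, which was lowest in LPS-treated HDAC3 KO (16.0%) and highest in untreated wt (34.6%).

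A member could be listed as 1 continuous peak or as several separated by short gaps. In LPS-treated HDAC3 KO 2403 members (16.0%) were split into 2 or more peaks, in LPS-treated wt 2851 (19.0%), in the untreated HDAC3 KO library 3854 (25.7%) and in untreated wt 5201 (34.6%). The gaps had a median of 77 bp in LPS-treated HDAC3 KO, 85 bp in LPS-treated wt, 102 bp in the untreated HDAC3 KO library and 93 bp in untreated wt. Fewer members were split in the LPS-treated than in the untreated library of each genotype, and fewer in the HDAC3 KO than in the wt library under each treatment. Broad regions ranked the libraries alike, with 53.3, 64.9, 74.3 and 80.9% split in the same order of libraries. The ranking is therefore not particular to members. In HDAC3 KO 1186 members were split with LPS only and 2637 in untreated cells only, and in wt 1038 were split with LPS only and 3388 in untreated cells only. With LPS 1402 members were split in HDAC3 KO only and 1850 in wt only, and in untreated cells 1479 were split in HDAC3 KO only and 2826 in wt only. These pairwise counts were made for members alone. A single peak in all 4 lists was found for 7227 members (48.1%), compared with 104 broad regions (3.69%). The same 445 members (2.96%) were split in all 4 lists.

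The label "constitutive" was checked base by base. The part of a member covered in all 4 lists at once had a median of 681 bp (interquartile range 445 to 1069 bp) and a median of 50.0% of the merged width. In broad regions this shared part was 1741 bp and 42.7% of the width. Of all bp in members, 47.8% were covered in all 4 lists, 19.1% in 3, 16.7% in 2 and 16.4% in 1. For 312 members (2.08%) no single base was covered in all 4 lists, so that the peaks of different libraries were joined only by merging. These 312 ranked low by score, with median ranks of 15.8 in LPS-treated HDAC3 KO, 12.1 in LPS-treated wt, 9.59 in the untreated HDAC3 KO library and 8.60 in untreated wt, on the scale described next. The name therefore fits the presence of a peak in every list and does not hold for every base.

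Each peak came with a score from the authors, on a scale that is not stated. Scores were turned into ranks from 0 to 100 (highest) within each library, over the same 17827 regions with a peak in all 4 lists, with a region taking its highest-scored peak. The median rank of members was 43.4 in LPS-treated HDAC3 KO, 45.0 in LPS-treated wt, 45.5 in the untreated HDAC3 KO library and 45.8 in untreated wt. Broad regions had median ranks of 87.7, 82.0, 77.1 and 74.0 in the same order of libraries. Ranks were higher in wider members: those under 1000 bp (n = 2645) had median ranks of 18.9, 24.1, 23.2 and 24.3, and those of 2500 bp or more (n = 1506) had 72.9, 69.8, 69.5 and 66.5. Against all peaks of its own list, the best peak of a member stood at a median percentile of 71.4 in LPS-treated HDAC3 KO, 68.0 in LPS-treated wt, 71.4 in the untreated HDAC3 KO library and 75.4 in untreated wt. The median member thus ranked below the median broad region and above most peaks of each list.

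The order of members by score was compared between libraries. Across the 15011 members, Spearman's rho of the scores was 0.75 between LPS-treated HDAC3 KO and LPS-treated wt and 0.71 between untreated HDAC3 KO and untreated wt. It was 0.57 between LPS-treated and untreated HDAC3 KO and 0.56 between LPS-treated and untreated wt. In broad regions the between-genotype values were 0.73 and 0.71, and the between-treatment values were 0.25 in HDAC3 KO and 0.37 in wt. The points are the same regions in every pair, many share merged width as a common factor, and the pairing of inputs with ChIP libraries is not given, so these coefficients describe the lists and carry no p.

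The members that scored high in every library are shown first as examples. The 5 whose lowest rank over the 4 libraries was highest lay on chromosomes 19, 3, 11, 7 and 1. The first, chromosome 19, 40968302 to 40970432, was covered over 2030 bp in LPS-treated HDAC3 KO, 1769 bp in LPS-treated wt, 2131 bp in the untreated HDAC3 KO library and 1778 bp in untreated wt. Its scores of 3100.0, 3100.0, 2072 and 2670 in that order gave ranks of 98.9, 99.1, 99.6 and 99.9. The next 2 lay at chromosome 3, 104666342 to 104668694, and chromosome 11, 115937589 to 115939944. In these 5 members no covered length differed by as much as 1.5-fold between any of the 4 comparisons made below.

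The members with the most even extent were those with the largest share of their width covered in all 4 lists. At chromosome 7, 109054395 to 109056404, the peaks covered 2010 bp in LPS-treated HDAC3 KO, 1971 bp in LPS-treated wt, 1996 bp in the untreated HDAC3 KO library and 1937 bp in untreated wt, and 96.4% of the region was shared. The other 4, on chromosomes 19, 19, 11 and 2, shared 93.7 to 95.1% of their width. Even extent did not require a high score: the chromosome 2 region, 119420020 to 119420655, was only 636 bp wide and ranked 27.3 in LPS-treated HDAC3 KO, 56.9 in LPS-treated wt, 54.3 in the untreated HDAC3 KO library and 52.9 in untreated wt.

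LPS-treated HDAC3 KO was compared with untreated HDAC3 KO to ask how LPS changed the extent of acetylation at these regions without HDAC3. Covered length was longer with LPS at 9916 members (66.1%) and shorter at 5080. The median log2 ratio was 0.17 (interquartile range -0.10 to 0.52), a median difference of 132 bp and a ratio of 1.12. A total of 3299 members (22.0%) were at least 1.5-fold longer, beside 25.5% of the 23198 merged regions with a peak in both libraries. A total of 1028 (6.85%) were at least 1.5-fold shorter, beside 8.19% of those regions. Broad regions had a median log2 ratio of 0.36, with 35.8% at least 1.5-fold longer and 4.15% shorter. The median over all regions with a peak in both libraries was itself 0.19, and relative to that shift the members' median was -0.023, with 2304 at least 1.5-fold longer and 1662 shorter. Members are most of the regions that set this shift, here and in the comparisons below. A small relative median therefore follows largely from the subtraction. Counts relative to the shift, here and below, were made for members alone and have no share over all regions beside them.

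In wt the same comparison, LPS-treated against untreated, gave a more even split. Covered length was longer at 8124 members (54.1%) and shorter at 6872, with a median log2 ratio of 0.048 (-0.30 to 0.38), a median difference of 33 bp and a ratio of 1.03. At least 1.5-fold longer were 2408 members (16.0%), beside 21.3% of the 22229 regions with a peak in both libraries, and 2133 (14.2%) were at least 1.5-fold shorter, beside 14.2%. The broad regions had a median of 0.22, with 30.0% longer and 12.1% shorter by that measure. All regions that were listed both with LPS and untreated in wt had a median of 0.090, and relative to it the members' median was -0.043, with 1995 longer and 2549 shorter. The wt median of 0.048 was 0.11 with peaks at or above the median score of their list, 0.12 with the 20000 best-scored peaks per list and 0.0034 when peaks within 500 bp were merged. The merged width includes the LPS peaks, so a region that lengthened past 3000 bp with LPS counts as broad, and the narrow and broad values cannot be set apart from this choice. With the limit placed on the untreated libraries' peaks alone, the members' median was 0.20 for LPS in HDAC3 KO and 0.070 for LPS in wt.

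The genotype comparison asked how the extent differed in HDAC3 KO from wt. With LPS, covered length was longer in HDAC3 KO at 10629 members (70.8%) and shorter at 4363. The median log2 ratio of HDAC3 KO over wt was 0.19 (-0.040 to 0.51), a median difference of 154 bp and a ratio of 1.14. At least 1.5-fold longer in HDAC3 KO were 3179 members (21.2%), beside 23.1% of the 25056 regions with a peak in both libraries, and 665 (4.43%) were at least 1.5-fold shorter, beside 5.62%. Relative to the median of 0.19 over those regions, the members' median was 0.00001, with 2134 longer and 1119 shorter. Among broad regions the median was 0.24, with 25.9% longer and 1.28% shorter.

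In untreated cells the genotypes lay closer together. Covered length was longer in HDAC3 KO at 8468 members (56.4%) and shorter at 6522, with a median log2 ratio of 0.065 (-0.22 to 0.36), a median difference of 48 bp and a ratio of 1.05. At least 1.5-fold longer in HDAC3 KO were 2083 members (13.9%), beside 17.0% of the 24496 regions with a peak in both libraries, and 1567 (10.4%) were at least 1.5-fold shorter, beside 11.1%. Relative to the median of 0.085 over those regions, the members' median was -0.020, with 1647 longer and 1908 shorter. With the 20000 best-scored peaks per list the median was 0.10. Broad regions had a median of 0.13, with 16.7% longer and 8.24% shorter.

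**Figure D2:**
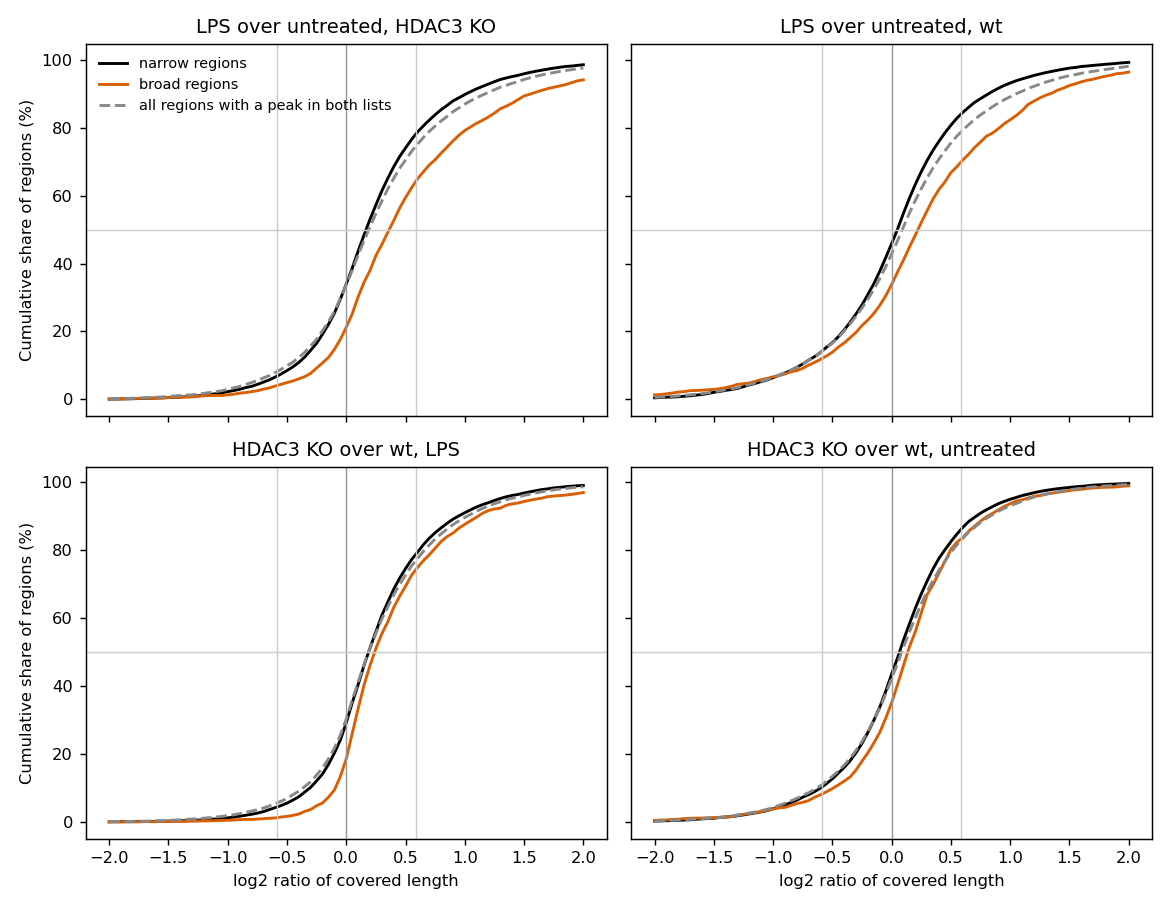
Cumulative percent of regions by log2 ratio of covered length, for LPS over untreated (top) and HDAC3 KO over wt (bottom), in narrow regions (n = 15011), broad regions (n = 2816) and all merged regions with a peak in both libraries compared. Grey vertical lines mark a 1.5-fold difference and no difference, and the grey horizontal line marks the median. The curves of narrow and broad regions were split by the width of the same peaks, and the median of narrow regions is above 0 as listed but between -0.043 and 0.00001 once the median of all regions is subtracted. Narrow regions are most of all regions here, so the subtraction in itself brings their median near 0.

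The members' median was also taken per chromosome. Over all regions with a peak in both libraries, the median log2 ratio was already above 0 in each of the 4 comparisons. Such a shift of a whole library would by itself make most chromosomes positive, so the chromosomes are not separate support. Medians per chromosome were taken for members alone, so whether other regions differ was not tested. The members' median log2 ratio was above 0 on 20 of 20 chromosomes in each comparison, before any subtraction of the median of all regions. It ran from 0.14 on chromosome 17 to 0.23 on chromosome 19 for LPS in HDAC3 KO, and from 0.0062 on chromosome 15 to 0.13 on the X chromosome for LPS in wt. For HDAC3 KO over wt it ran from 0.11 on the X chromosome to 0.23 on chromosome 9 with LPS, and from 0.014 on chromosome 13 to 0.10 on chromosome 7 in untreated cells. Members made up 20.5% (chromosome 16) to 27.5% (chromosome 7) of the merged regions of a chromosome.

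Since the width limit caps how far a member could extend, members near it were set beside the regions just outside. The 20 members of 2993 to 2999 bp had median covered lengths of 2927.5 bp in LPS-treated HDAC3 KO, 2562 bp in LPS-treated wt, 2353 bp in the untreated HDAC3 KO library and 2413.5 bp in untreated wt. The 20 regions of 3000 to 3009 bp had 2773.5, 2428.5, 2239.5 and 1636.5 bp in the same order. Within the members, the median log2 ratio for LPS in HDAC3 KO was 0.14 under 1000 bp and 0.26 at 2500 bp or more, and for HDAC3 KO over wt with LPS it was 0.13 and 0.25. For LPS in wt it was 0.068 under 1000 bp, 0.011 from 1000 to 1500 bp and 0.099 at 2500 bp or more.

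How the edges moved was read from the 7227 members with a single peak in all 4 lists. With LPS in HDAC3 KO these peaks had a median length of 989 bp, against 848 bp in untreated HDAC3 KO, and the lower and upper edges lay a median of 37 and 40 bp further out. Both edges lay further out at 2840 of them (39.3%) and both further in at 1070 (14.8%). With LPS in wt the median length was 847 bp, against 819 bp in untreated wt, with edges 16 and 13 bp further out, both out at 2268 (31.4%) and both in at 1567 (21.7%). In LPS-treated HDAC3 KO, against LPS-treated wt (989 against 847 bp), the edges lay 34 and 38 bp further out, with both out at 2917 (40.4%). In untreated HDAC3 KO, against untreated wt (848 against 819 bp), they lay 14 and 13 bp further out, with both out at 2126 (29.4%). The midpoint of a peak moved by a median of 82.5 to 93.5 bp in the 4 comparisons. One edge further out and the other further in was the largest class in each comparison, at 45.2% of these members for LPS in HDAC3 KO, 46.3% for LPS in wt, 44.8% for genotype with LPS and 49.2% for genotype in untreated cells. This class pools moves toward either end, while both out and both in were counted apart. Its size therefore does not show that peaks mainly moved sideways.

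Across the 4 libraries the longest covered length of a member was a median of 1.65 times the shortest (interquartile range 1.35 to 2.24), and at most 15.4 times. All 4 lengths lay within 1.5-fold of each other at 5784 members (38.5%). All 4 ranks lay within 20 points of each other at 4069 members (27.1%), and both held for 2133 (14.2%). The longest extent belonged to LPS-treated HDAC3 KO at 6866 members (45.7%), to LPS-treated wt at 2569 (17.1%), to untreated HDAC3 KO at 3274 (21.8%) and to untreated wt at 2272 (15.1%). The shortest belonged to LPS-treated HDAC3 KO at 1466 members (9.77%), to LPS-treated wt at 4546 (30.3%), to untreated HDAC3 KO at 3939 (26.2%) and to untreated wt at 5027 (33.5%). These shares were counted in members alone, so whether they differ from those of other regions was not tested. In broad regions, too, median covered length was highest in LPS-treated HDAC3 KO (3614.5 bp). It was 3033 bp in LPS-treated wt, 2847 bp in untreated HDAC3 KO and 2518.5 bp in untreated wt.

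Score ranks were higher at some members and lower at others in every comparison. With LPS in HDAC3 KO 2485 members (16.6%) stood at least 20 points higher, beside 18.9% of the 17827 regions, and 3224 (21.5%) at least 20 points lower, beside 19.9%. With LPS in wt 2828 (18.8%) stood higher, beside 20.2%, and 3080 (20.5%) lower, beside 20.1%. In LPS-treated HDAC3 KO against LPS-treated wt 1682 (11.2%) stood higher, beside 12.9%, and 2046 (13.6%) lower, beside 12.3%. In untreated HDAC3 KO against untreated wt 2273 (15.1%) stood higher, beside 15.4%, and 2372 (15.8%) lower, beside 15.2%. The median absolute change of rank was 14.8 points for LPS in HDAC3 KO, 15.1 for LPS in wt, 10.6 for genotype with LPS and 12.3 for genotype in untreated cells. Ranks have a fixed sum over the 17827 regions, so the members' shares are tied to those of the broad regions.

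The share of members called longer or shorter was higher among weakly than among strongly scored ones. Members were placed in 5 groups of equal size by their mean rank in the 2 libraries that did not enter the comparison. The groups hold members alone, so whether other regions have the same order was not tested. The shares over all regions with a peak in both libraries are those given above for each comparison. Rank was higher in wider members, and the part of width in these shares was not tested. For LPS in HDAC3 KO, 28.9% of the weakest group were at least 1.5-fold longer and 9.92% shorter, and in the strongest group 12.8% were longer and 2.00% shorter. For LPS in wt these shares were 19.1 and 19.7% in the weakest group and 7.70 and 6.53% in the strongest. For HDAC3 KO over wt with LPS they were 27.8 and 6.73% in the weakest and 13.1 and 1.10% in the strongest, and in untreated cells 16.7 and 15.2% against 7.00 and 5.50%. The median log2 ratio had no common order. It was 0.21 in the weakest and 0.13 in the strongest group for LPS in HDAC3 KO, and 0.0050 and 0.061 for LPS in wt. For HDAC3 KO over wt it was 0.23 and 0.16 with LPS, and 0.058 in both groups in untreated cells.

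The 2 LPS comparisons share no ChIP library, so the members that moved in both genotypes could be counted. A total of 1160 members (7.73%) were at least 1.5-fold longer with LPS in both genotypes, beside 10.0% of the 17827 regions with a peak in all 4 lists. They made up 35.2% of the members longer in HDAC3 KO and 48.2% of those longer in wt, beside 41.5 and 54.9% over the 17827 regions. At least 1.5-fold shorter in both were 382 members (2.54%), beside 2.53%, which was 37.2% of those shorter in HDAC3 KO and 17.9% of those shorter in wt, beside 39.4 and 18.2% over the 17827 regions. Opposite calls were made at 332 members (2.21%) longer in HDAC3 KO and shorter in wt, beside 2.05% of the 17827 regions, and at 74 (0.493%) shorter in HDAC3 KO and longer in wt, beside 0.421%. Of the broad regions, 62.2% of those longer in HDAC3 KO and 74.1% of those longer in wt were longer in both. For shorter these shares were 59.0 and 20.2%. Members are 84.2% of the 17827 regions, so values over those regions lie near the members' values by construction. Across the 15011 members the 2 log2 ratios were related with r = 0.36 (Pearson) and rho = 0.32 (Spearman). Across broad regions these were 0.62 and 0.65.

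The 2 genotype comparisons also share no ChIP library. At least 1.5-fold longer in HDAC3 KO under both treatments were 698 members (4.65%), beside 5.05% of the 17827 regions, which was 22.0% of those longer with LPS and 33.5% of those longer in untreated cells. Over the 17827 regions, of which 84.2% are members, these shares were 23.1 and 35.3%. Over broad regions they were 27.9 and 43.3%. At least 1.5-fold shorter in HDAC3 KO under both were 154 (1.03%), beside 0.937%. A call of longer in HDAC3 KO with LPS and shorter in HDAC3 KO without was made at 347 members (2.31%), beside 2.13% of the 17827 regions, and the reverse at 82 (0.546%), beside 0.466%. Between treatments these log2 ratios were related with r = 0.14 (Pearson) and rho = 0.11 (Spearman) across members, and 0.27 and 0.26 across broad regions. The spread expected between 2 libraries of the same group was not measured.

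**Figure D3:**
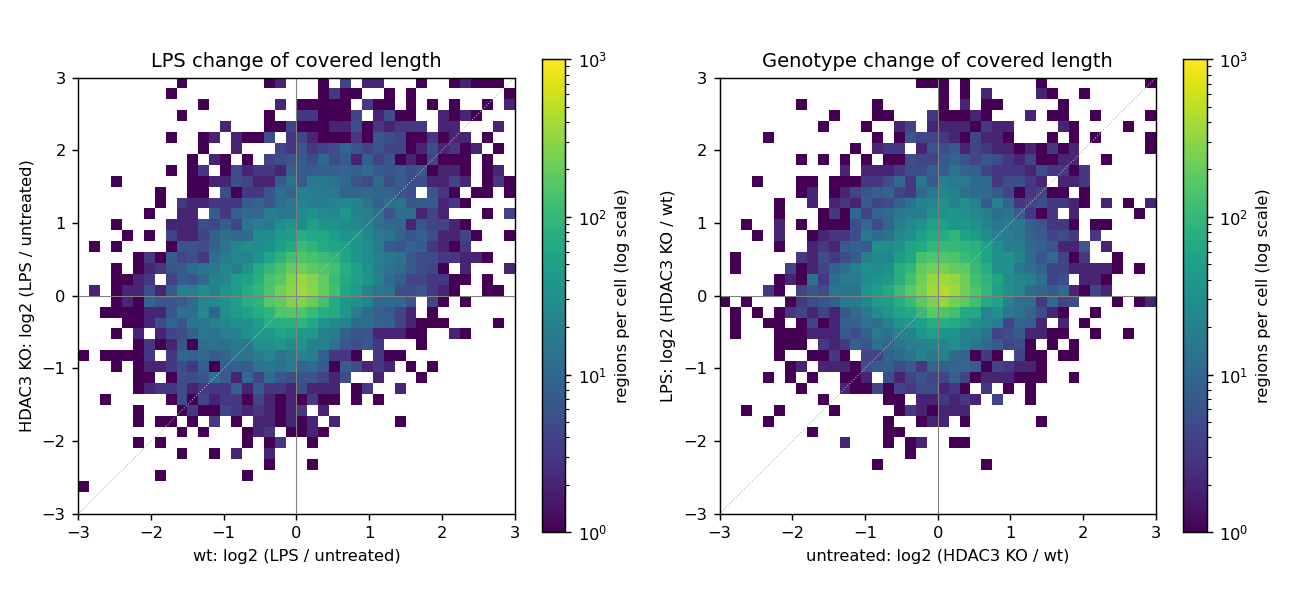
Counts of narrow regions (colour, log scale) by log2 ratio of covered length in both genotypes for LPS over untreated (left) and under both treatments for HDAC3 KO over wt (right), with lines at 0 and a diagonal of equality; the axes run from -3 to 3, and regions beyond them are not drawn. The cloud is stretched along the diagonal on the left (Pearson r 0.36) and nearly round on the right (r 0.14).

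The LPS change was subtracted between genotypes for each member. The log2 ratio in HDAC3 KO minus that in wt had a median of 0.14 (interquartile range -0.23 to 0.58). The LPS change was at least 1.5-fold more positive in HDAC3 KO at 3740 members (24.9%), beside 25.1% of the 17827 regions, and at least 1.5-fold more negative at 1701 (11.3%), beside 10.9%. With each LPS comparison set relative to the median of all its regions, the median difference was 0.041. It was 0.069 with peaks at or above the median score of their list and 0.048 with the 20000 best-scored peaks per list. Broad regions had a median of 0.17, with 25.9% more positive and 8.31% more negative in HDAC3 KO.

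The distance to other acetylated regions was measured for members and broad regions. For members, the nearest other merged region of any kind was a median of 824 bp away, and 10334 members (68.8%) had one within 5 kb. The nearest other member was a median of 13.2 kb away and the nearest broad region 129 kb, with 1157 members (7.71%) within 5 kb of a broad one. Broad regions lay nearer still to any other region (median 307.5 bp, 2395 of 2816 within 5 kb), to members (10.2 kb) and to each other (32.1 kb).

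The surroundings of a member were then described from the other merged regions near it. Distances ran between the edges of merged regions. A member's own peaks set its edges and decide which neighbours are merged into it, so the distance is not independent of its covered length. For each member, the distance was taken to the nearest region that the other genotype's libraries listed with LPS and not in untreated cells, called gained. Members within 2 kb of a region gained in wt (n = 1480) had a median LPS log2 ratio in HDAC3 KO of 0.39, with 1401.5 bp in LPS-treated and 942.5 bp in untreated HDAC3 KO. Of these, 40.1% were at least 1.5-fold longer and 3.24% shorter. Over the 23198 regions with a peak in both HDAC3 KO libraries, at any distance, these shares were 25.5 and 8.19%. Shares by distance, here and below, were counted for members alone, so whether they differ from those of other regions was not tested. Members 50 kb or more away (n = 7372) had a median of 0.12, with 1280.0 bp in LPS-treated and 1168.5 bp in untreated HDAC3 KO, and 17.1% longer and 7.95% shorter. The medians between these were 0.25 at 2 to 5 kb, 0.25 at 5 to 10 kb and 0.16 at 10 to 50 kb.

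The same held with the genotypes exchanged. Members within 2 kb of a region gained in HDAC3 KO (n = 2372) had a median LPS log2 ratio in wt of 0.21, with 1111 bp in LPS-treated and 942 bp in untreated wt, and 27.2% were at least 1.5-fold longer and 9.70% shorter. At 50 kb or more (n = 5514) the median was 0.0090, with 1083 bp in LPS-treated and 1119 bp in untreated wt, and 11.9% were longer and 14.3% shorter. The median merged widths of these 2 groups, 1626.5 and 1559 bp, were similar, while the untreated covered length was shorter in the nearer group. Because neighbouring members share surroundings and each ratio comes from 1 pair of libraries, these are descriptions. The part of the shorter untreated length in these differences was not tested.

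Near regions lost with LPS in the other genotype the order was the opposite. Members within 2 kb of a region lost in wt (n = 2315) had a median LPS log2 ratio in HDAC3 KO of 0.10, against 0.19 at 50 kb or more. Members within 2 kb of a region lost in HDAC3 KO (n = 1867) had a median of -0.060 in wt, against 0.081 at 50 kb or more, and 20.2% of the nearer members were at least 1.5-fold shorter, against 11.7%. The genotype comparison had smaller differences between near and far members. Within 2 kb of regions listed in HDAC3 KO and not in wt among untreated cells (n = 1778), the median log2 ratio of HDAC3 KO over wt with LPS was 0.23, against 0.16 at 50 kb or more. It was 0.23 at 2 to 5 kb, 0.22 at 5 to 10 kb and 0.22 at 10 to 50 kb, so it changed little within 50 kb. Within 2 kb of such regions among LPS-treated cells (n = 2385), the median of HDAC3 KO over wt in untreated cells was 0.11, against 0.045. Near regions listed in wt and not in HDAC3 KO among untreated cells, the median with LPS was 0.15 within 2 kb. It was 0.21 at 10 to 50 kb and 0.18 at 50 kb or more. Near such wt regions among LPS-treated cells, the median in untreated cells was 0.036 within 2 kb and 0.071 at 50 kb or more.

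**Figure D4:**
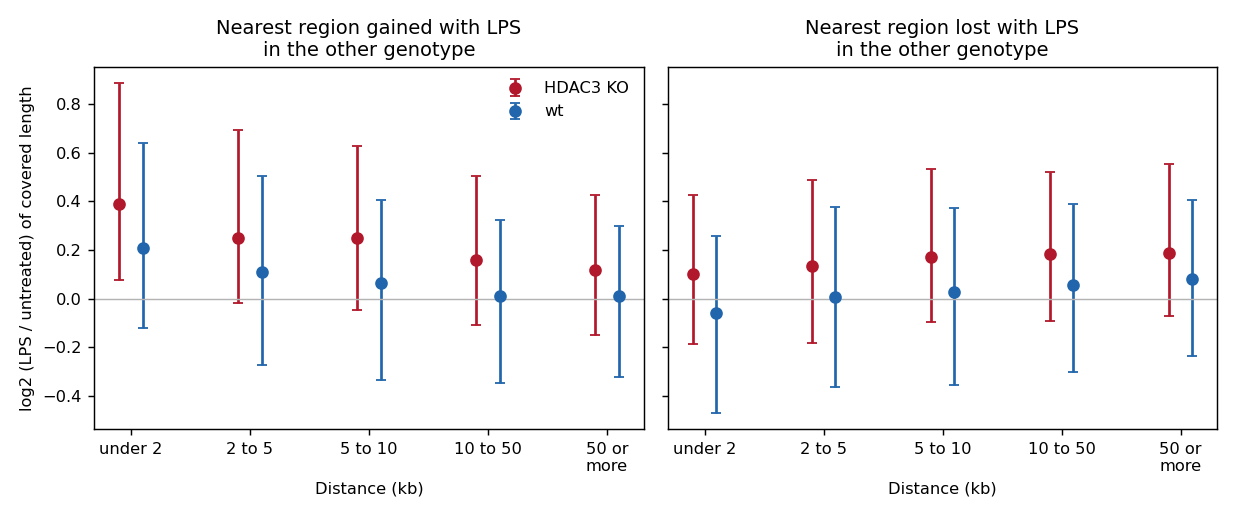
Log2 ratio of covered length, LPS over untreated, of narrow regions by distance in kb to the nearest region gained (left) or lost (right) with LPS in the libraries of the other genotype. Points are medians and bars are interquartile ranges over regions; the medians are highest within 2 kb of a gained region (0.39 in HDAC3 KO, 0.21 in wt) and lowest within 2 kb of a lost one (0.10 in HDAC3 KO, -0.060 in wt).

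Single members with the largest differences show what lies behind these counts. The member with the largest lengthening shared by both genotypes lay at chromosome 7, 81829143 to 81831709. It was covered over 1813 bp in LPS-treated HDAC3 KO and 2466 bp in LPS-treated wt, against 253 bp in the untreated HDAC3 KO library and 194 bp in untreated wt. Its ranks were 83.5 and 76.1 in the LPS-treated libraries, against 1.29 and 0.44 in the untreated ones. At chromosome 11, 60580982 to 60583195, the lengths were 2214 and 1842 bp with LPS (HDAC3 KO, then wt), against 258 and 272 bp untreated. At chromosome 19, 11477844 to 11480361, they were 2518 and 2112 bp with LPS, against 396 and 277 bp untreated, and this region was also among the 3 with the largest shared gain of rank.

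The 5 members of this kind had log2 ratios of 2.61 to 3.67 in either genotype, and scores of 52.3 to 98.4 in the untreated libraries, near the lowest listed score of 50.0. Their constitutive status thus rests on short, low-scored peaks in untreated cells. The largest shared gain of rank was at chromosome 12, 80160677 to 80163222, which ranked 94.3 in LPS-treated HDAC3 KO and 89.3 in LPS-treated wt, against 2.08 in the untreated HDAC3 KO library and 0.83 in untreated wt.

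The member with the largest shortening shared by both genotypes lay at chromosome 1, 89724441 to 89727009. It was covered over 434 bp in LPS-treated HDAC3 KO and 325 bp in LPS-treated wt, against 2563 bp in the untreated HDAC3 KO library and 2444 bp in untreated wt. The short LPS peaks scored 94.5 and 55.0, against 509.5 and 389 untreated. They lay on different sides of the region, and no base was covered in all 4 lists. The chromosome 17 region, 29451746 to 29454245, was among the named members for both length and rank, with 743 and 474 bp with LPS, against 2500 and 1666 bp untreated, and ranks of 3.64 and 6.36, against 81.6 and 84.3. At chromosome 9, 103131632 to 103133868, the ranks were 9.93 in LPS-treated HDAC3 KO and 8.93 in LPS-treated wt, against 92.5 in the untreated HDAC3 KO library and 85.7 in untreated wt.

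Of the members longer in HDAC3 KO under both treatments, the first by rule lay at chromosome 3, 154353460 to 154356318. It was covered over 2581 bp in LPS-treated HDAC3 KO, against 330 bp in LPS-treated wt, and over 2711 bp in untreated HDAC3 KO, against 341 bp in untreated wt. The wt scores were 62.0 and 51.3 with and without LPS. A member with a gain of rank in HDAC3 KO lay at chromosome 5, 118914064 to 118916555, which ranked 91.2 in LPS-treated HDAC3 KO, against 5.21 in LPS-treated wt, and 92.4 in untreated HDAC3 KO, against 11.2 in untreated wt. Its lengths were 2492 against 777 bp with LPS and 2050 against 512 bp untreated. At this region the genotype difference was present with and without LPS, and 492 bp were shared by all 4 lists.

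In the opposite direction, the region at chromosome 3, 95784869 to 95786908, was covered over 492 bp in LPS-treated HDAC3 KO, against 1887 bp in LPS-treated wt, and over 422 bp in untreated HDAC3 KO, against 1451 bp in untreated wt. Its HDAC3 KO peaks scored 51.9 with LPS and 59.9 untreated, near the lowest listed score of 50.0. They lay on different sides of the region, and no base was covered in all 4 lists. The region at chromosome 19, 7368597 to 7370540, had the largest shared loss of rank in HDAC3 KO, with 16.5 against 84.5 with LPS and 8.13 against 76.3 untreated. The 5 named shortenings in HDAC3 KO had log2 ratios of -2.65 to -1.40 and the 5 named lengthenings 2.20 to 3.40, and in size these ranges overlap.

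The genotypes differed most in the LPS change at chromosome 4, 55744770 to 55747322. Covered length was 2406 bp in LPS-treated HDAC3 KO, against 322 bp in untreated HDAC3 KO, while it was 557 bp in LPS-treated wt, against 1665 bp in untreated wt. The difference of the log2 ratios, HDAC3 KO minus wt, was 4.48. Its largest counterpart, at chromosome 11, 81859013 to 81861730, had 642 bp in LPS-treated HDAC3 KO, against 2199 bp in untreated HDAC3 KO, and 2233 bp in LPS-treated wt, against 840 bp in untreated wt, a difference of -3.19. In the chromosome 4 region no base was covered in all 4 lists, and ranks were 52.1, 26.0, 5.77 and 20.4 in LPS-treated HDAC3 KO, LPS-treated wt, untreated HDAC3 KO and untreated wt.

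**Figure D5:**
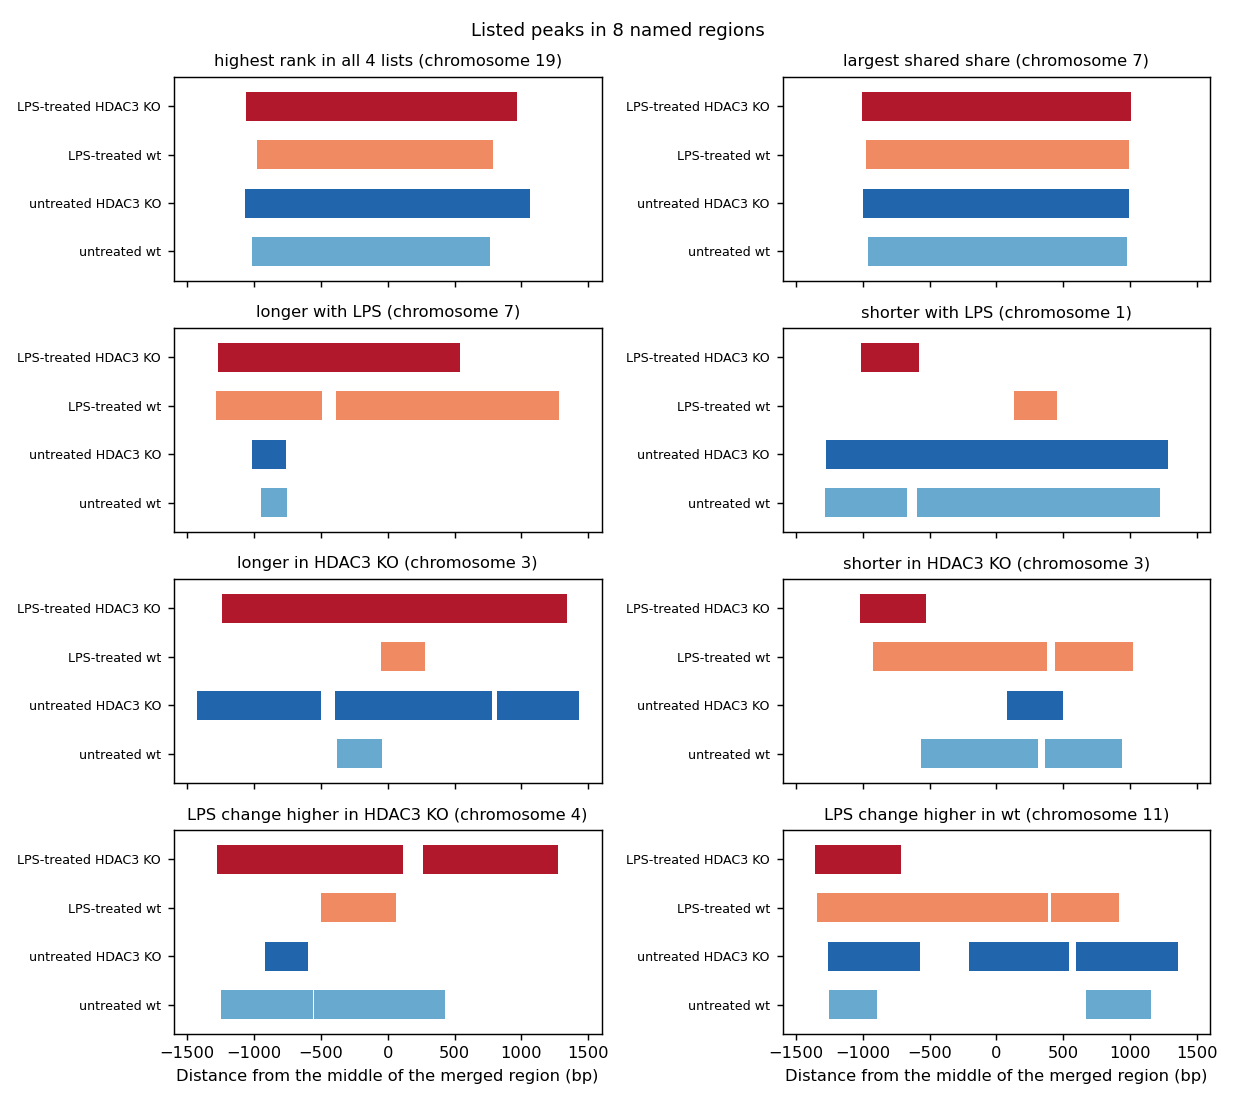
Positions of the listed peaks in 8 named narrow regions, as distance in bp from the middle of the merged region, with 1 row per library. The top 2 regions are covered alike in all libraries, and the lower 6 show the largest differences by LPS, by genotype and in the LPS change; in these the short peaks of one library lie at an edge or in the middle of the longer peaks of another, or beside them.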

How the data were processed

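Acetylated H4 ChIP-seq peaks from 4 libraries, 1 per group, were analysed. Per the submitters' processing notes, Bowtie and mm9 were used. Peaks were called with MACS against input for each library, per the file headers. Versions and settings are not given in the sources used here. The deposited score is the authors' own value per peak, and the lowest score was 50.0. Start and end positions are the authors', as deposited. No read counts are in the lists, so depth, which sets how precisely peak edges and scores are known, is unknown.

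Peaks of the 4 lists were merged at a gap of 0 bp, and all 62481 regions were identical to those of bedtools 2.31.1 merge. Covered length was summed per region and list, and log2 ratios were computed without a pseudocount, since every member has a peak in every list. A call was a 1.5-fold difference, and ranks ran to 100. The steps were tested on simulated lists. Python 3.11.15, numpy 2.4.6, pandas 2.3.3, scipy 1.17.1 and matplotlib 3.10.9 were used. With 1 library per group, no test was made. Alternatives were another merge gap (500 bp), other width limits (2000 and 4000 bp, or set on the peaks of the untreated or of the wt libraries alone), stronger peaks, a 2-fold call, scaling to the median of all regions, other rank bases and fewer chromosomes.

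Members and comparisons were chosen with earlier results of these data known. Regions were named by rule: the 5 with the highest lowest rank, the 5 with the largest share covered in all 4 lists, the 5 per direction with the largest difference shared by both pairs of libraries, the 3 per direction with the largest difference of the LPS change, and the 3 per direction with the largest shared change of rank. The text gives part of them in full. Gene lists and sequence were planned for an mm9 annotation or genome only and were not used here. Coordinates are counted from 1.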

Additional observations from a re-analysis of the deposited data

How the results depend on the processing

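Of 285 values recomputed under other settings, 155 stayed within 1.5 times (counts) or within the 95% interval of the median over regions, 127 moved beyond that and 3 changed sign. The interval counts regions as independent, though regions are not replicates, and it holds no spread between libraries. These bounds therefore only sort the recomputed values. All 30 values were within these bounds when sex chromosomes, mitochondrial and unplaced sequences were left out. The cause of the changes below was not tested, except that stricter peaks and a stricter fold leave fewer regions by construction. No paired analysis was possible because each group has 1 library, and with 1 library there is no replicate to leave out.

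With covered length scaled to the median of all regions, the median log2 ratio changed sign for LPS in HDAC3 KO (-0.023), LPS in wt (-0.043) and genotype in untreated cells (-0.020), and was 0.00001 for genotype with LPS. Under this scaling 1662 members were at least 1.5-fold shorter with LPS in HDAC3 KO and 1119 were shorter in HDAC3 KO with LPS, and the median genotype difference of the LPS change was 0.041. Scaled counts were made for members alone, with no share over all regions beside them. The 15011 members are most of the 22229 to 25056 regions that set this scale, so small scaled medians follow largely from the scaling. The direction of the median is therefore given only for lengths as listed. Its sign after scaling depends on the regions outside the members and gives no direction of its own.

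With peaks at or above the median score of their list, 8371 regions met the rule. Their median covered lengths were 1504 bp (LPS-treated HDAC3 KO), 1286 bp (LPS-treated wt), 1273 bp (untreated HDAC3 KO) and 1184 bp (untreated wt). Median log2 ratios were 0.11 for LPS in wt, 0.17 for genotype with LPS and 0.091 for genotype in untreated cells, and 0.069 for the genotype difference of the LPS change. Longer and shorter by 1.5-fold were 1768 and 459 regions (LPS in HDAC3 KO), 1566 and 756 (LPS in wt), 1406 and 354 (genotype with LPS) and 1325 and 682 (genotype, untreated). Higher and lower by 20 rank points were 1398 and 1980 (LPS in HDAC3 KO), 1668 and 1868 (LPS in wt), 976 and 1256 (genotype with LPS) and 1414 and 1463 (genotype, untreated). These counts are out of 8371 regions, so a count below that of the 15011 members is not in itself a lower share. Among the settings of this section, counts over all regions are given only for the 2-fold call.

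With each list limited to its 20000 peaks of highest score, 7663 regions met the rule, with medians of 1524 bp (LPS-treated HDAC3 KO), 1317 bp (LPS-treated wt), 1303 bp (untreated HDAC3 KO) and 1181 bp (untreated wt). Median log2 ratios were 0.12 for LPS in wt, 0.16 for genotype with LPS and 0.10 for genotype in untreated cells, and 0.048 for the genotype difference of the LPS change. Longer and shorter were 1564 and 422 regions (LPS in HDAC3 KO), 1547 and 608 (LPS in wt), 1233 and 352 (genotype with LPS) and 1349 and 558 (genotype, untreated). Higher and lower in rank were 1281 and 1833 (LPS in HDAC3 KO), 1552 and 1727 (LPS in wt), 885 and 1166 (genotype with LPS) and 1347 and 1397 (genotype, untreated). All of these counts are out of 7663 regions, and the same limits on their reading hold. The larger LPS change in HDAC3 KO than in wt was thus smaller among stronger peaks.

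With peaks within 500 bp merged, the median lengths were 1430.0 bp (LPS-treated HDAC3 KO), 1195 bp (LPS-treated wt), 1268 bp (untreated HDAC3 KO) and 1223 bp (untreated wt). Median log2 ratios were 0.14 for LPS in HDAC3 KO, 0.0034 for LPS in wt and 0.048 for genotype in untreated cells, with a genotype difference of the LPS change of 0.16. Of the 11259 members under this setting, rank was higher at 1565 for LPS in HDAC3 KO and at 1020.0 for genotype with LPS.

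With a width limit of 2000 bp, the medians were 1078 bp (LPS-treated HDAC3 KO), 908 bp (LPS-treated wt), 945 bp (untreated HDAC3 KO) and 915 bp (untreated wt), and with 4000 bp 1402, 1156, 1183 and 1134 bp in the same order. At 2000 bp the median log2 ratios were 0.15 for LPS in HDAC3 KO, 0.035 for LPS in wt, 0.17 for genotype with LPS and 0.049 for genotype in untreated cells, and 1598 members were longer with LPS in wt. Rank was then higher at 1512 members for LPS in HDAC3 KO, 1885 for LPS in wt and 994 for genotype with LPS. These counts at 2000 bp are out of 10795 members. At 4000 bp the median log2 ratio for LPS in HDAC3 KO was 0.18.

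With the limit set on the untreated libraries' peaks alone, which frees the LPS-treated ones, the medians were 1372 bp (LPS-treated HDAC3 KO), 1140.0 bp (LPS-treated wt), 1150.0 bp (untreated HDAC3 KO) and 1105 bp (untreated wt), with log2 ratios of 0.20 for LPS in HDAC3 KO and 0.070 for LPS in wt. With the limit on the wt peaks alone they were 1364, 1125, 1158 and 1105 bp, with log2 ratios of 0.20 for genotype with LPS and 0.076 for genotype in untreated cells.

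With a call at 2-fold, 1544 members were longer and 344 shorter with LPS in HDAC3 KO, 1035 and 964 with LPS in wt, 1354 and 183 in HDAC3 KO with LPS, and 757 and 588 in untreated HDAC3 KO. Over all regions with a peak in both libraries, 3042 of 23198 were longer and 697 shorter with LPS in HDAC3 KO. For LPS in wt these were 2434 and 1452 of 22229. For genotype they were 2604 and 469 of 25056 with LPS, and 1696 and 1047 of 24496 in untreated cells. The depth behind the lists is unknown, so how far it limits these values cannot be given.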
